A study of Homo sapiens with 6 samples.

Results

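The STAT genes and JAK kinases examined here are 9 genes, STAT2, STAT3, STAT4, STAT5A, STAT5B, STAT6, JAK1, JAK2 and JAK3, of 19821 protein-coding genes in the annotation. They were chosen by name, and every ATAC-seq peak that overlapped the gene body or the 10 kb on either side of it was assigned to them. Merged over 6 peak lists, these peaks made up 40 regions of 56447 in all. In ATAC-seq, a transposase (Tn5) cuts DNA where chromatin is open and leaves adapters there, and the reads of such sites stack into peaks. The cells were GM12878, a human B lymphoblastoid cell line, and all 6 libraries came from this line with no antibody staining. By the labels, all cells were fixed in 1% paraformaldehyde, lysed with 0.05% Igepal CA-630 and transposed for 30 min at 37 °C, and the reaction was stopped with 40 mM EDTA. Reverse crosslinking with proteinase K ran overnight at 65 °C, followed by 10 min at 80 °C. The methods of the study give this lysis detergent, the EDTA stop and the 80 °C step for the bulk Pi-ATAC workflow and not for the SDS protocol, so the protocols may have differed in these steps too. Reverse crosslinking was done by 3 protocols with 2 libraries each, namely a buffer with SDS, an SDS-free buffer, and the same SDS-free buffer with no DNA purification before PCR, which is the bulk Pi-ATAC workflow. The study describes the former 2 protocols as followed by purification. The question behind the design was whether the new buffer and the omission of purification leave the accessible regions as they were.

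Janus kinases sit on the intracellular tails of cytokine receptors and phosphorylate tyrosines when a cytokine brings the receptor chains together. STAT proteins dock there, are phosphorylated in turn, pair up through their SH2 domains and enter the nucleus, where they bind DNA. B cells use this route for signals such as interleukin-4, interleukin-21 and interferons.

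Each library had 30136 to 38023 peaks. The lists hold no read totals, so depth was read from the peaks themselves: the lowest local background was 1.51 to 1.86 reads, the median summit 20 to 22 reads, and the weakest listed summit 8 or 9 reads. Sites with fewer reads were not listed, so weak accessibility was not detectable at this depth. Where summit reads are given below, they are the pileup of reads at the highest point of the peak, solved from its fold enrichment and p-value. They carry counting error, and nothing states that the replicate libraries came from separate cultures.

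The promoters of 5 of the 9 genes were called in all 6 libraries, namely those of STAT2, STAT3, STAT4, JAK1 and JAK2. Of all protein-coding genes, 45.5% had a promoter region called in all 6 libraries, a promoter region being one that overlaps the 1 kb on either side of a start of a coding transcript. STAT6 reached 5 libraries and JAK3 reached 4. STAT5A and STAT5B had no promoter peak in any library, which was so for 39.4% of all protein-coding genes. Of the 40 regions, 15 were called in all 6 libraries, beside 35.5% of all merged regions. Of the 13 promoter regions 5 were called in all 6 libraries, beside 64.2% of all promoter regions. The other 8 were 4 at STAT6, 2 at JAK1 and 1 each at STAT4 and JAK3. Of the 27 distal regions 10 were called in all 6 libraries, but 5 of the 27 lay at a start of another coding gene. Of the 22 away from any coding start 6 were called in all 6 libraries, beside 26.7% of all such regions in the windows of protein-coding genes. A further 13 regions were called in 1 library, 3 in 2, 4 in 3, 1 in 4 and 4 in 5 libraries. Of all 56447 merged regions, 15444 were called in 1 library, 6810 in 2, 4892 in 3, 4367 in 4 and 4870 in 5 libraries. STAT5A, STAT5B and STAT3 lie next to each other on chromosome 17 and their windows overlap, so these genes are not independent observations.

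**Figure D1:**
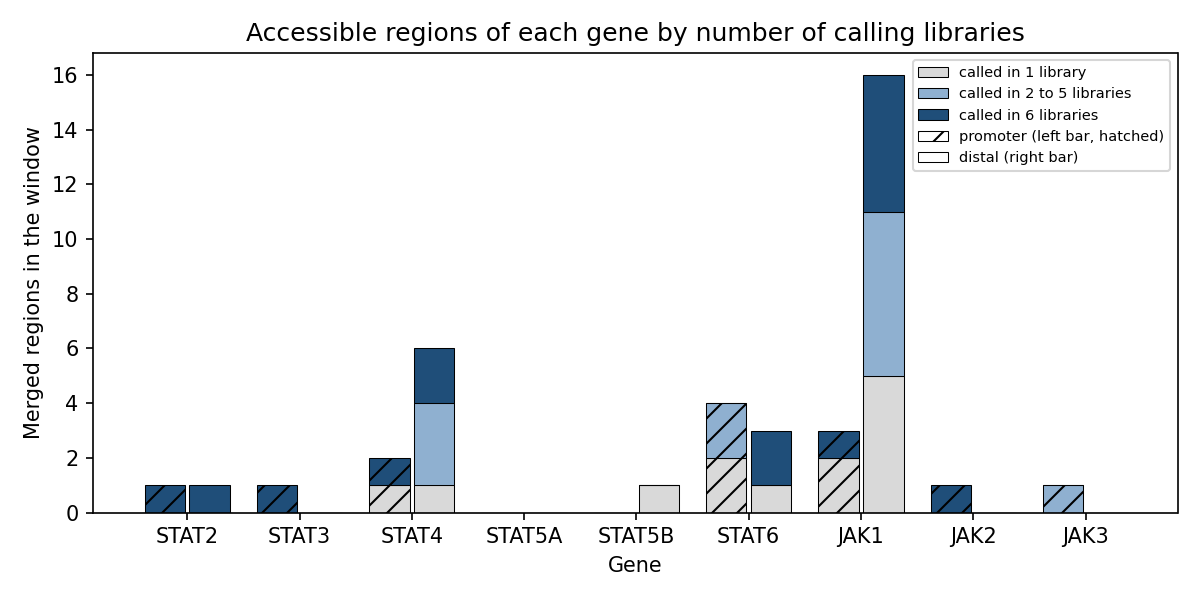
Number of merged regions in the window of each gene (vertical axis), split into promoter regions (left, hatched bar) and distal regions (right bar) and by the number of libraries with a peak (shades). JAK1 holds 19 of the 40 regions, whereas STAT5A holds none and STAT5B holds 1 that was called in 1 library.

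Among the kinases, JAK1, which serves interferon, interleukin-6 family and common gamma chain receptors, had the strongest promoter. Its promoter region at chr1:65431623-65432570 (hg19) had its summit at −66 bp from the canonical start. The summit held 73 and 44 reads in SDS replicates 1 and 2, 77 and 80 in the SDS-free purified libraries, and 78 and 70 in the Pi-ATAC libraries. SDS replicate 2 was thus low, and the other 5 libraries lay between 70 and 80 reads. Ranked by −log10 q among all peaks of its library, the region stood at place 312 in SDS-free purified replicate 2, at places 1054 to 1285 in 4 libraries, and at place 5119 in SDS replicate 2. JAK2, the kinase of the erythropoietin and growth hormone receptors, had a single region in its 165.6 kb window. This was its promoter at chr9:4984574-4985813, with 56 and 43 reads in the SDS libraries, 57 and 46 in the SDS-free purified libraries, and 53 and 52 in the Pi-ATAC libraries. All 3 protocols overlapped. JAK3, the kinase that binds the common gamma chain, also had a single region, at chr19:17958312-17958972 with the summit 131 bp after the canonical start. It held 16 reads in SDS replicate 2, 15 in SDS-free purified replicate 1, and 20 and 16 in the Pi-ATAC libraries, and no peak was listed in SDS replicate 1 and SDS-free purified replicate 2. In the libraries that called it, it stood 40.4% to 67.9% from the top of the list.

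Of the STAT genes, STAT2, which works with IRF9 in the response to type I interferon, had the strongest promoter. The region at chr12:56753700-56754526 had its summit at −152 bp from the canonical start and held 59 and 41 reads in the SDS libraries, 51 and 51 in the SDS-free purified libraries, and 50 and 60 in the Pi-ATAC libraries. The SDS replicates spanned nearly the whole range. STAT3, which carries signals of interleukin-6, interleukin-10 and interleukin-21, had 1 region in its 95.2 kb window, the promoter at chr17:40540247-40541036. It held 37 and 44 reads in the SDS libraries, 30 and 28 in the SDS-free purified libraries, and 32 and 35 in the Pi-ATAC libraries, so that the SDS libraries were the highest and did not overlap with the other 4. STAT4, the factor downstream of interleukin-12, had its main promoter region at chr2:192015227-192015997, over its canonical start. It held 27 and 17 reads in the SDS libraries, 30 and 32 in the SDS-free purified libraries, and 20 and 25 in the Pi-ATAC libraries. Here the SDS-free purified libraries were the highest, and SDS replicate 2 was the lowest. STAT6, the factor downstream of interleukin-4 and interleukin-13, had a promoter region 790 bp into the gene, at chr12:57504029-57504595. It held 20 and 16 reads in the SDS libraries, 22 and 15 in the SDS-free purified libraries and 22 in Pi-ATAC replicate 2, and no peak was listed in Pi-ATAC replicate 1.

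By the median of the summit reads the promoters ordered as JAK1 (75), JAK2 (52.5), STAT2 (51), STAT3 (33.5), STAT4 (26), STAT6 (20) and JAK3 (16). Each neighbouring pair in this order overlapped in range over the libraries. Within a library, JAK1 was above JAK2 in 6 of 6 libraries, JAK2 above STAT2 in 3 of 6, STAT2 above STAT3 in 5 of 6 and STAT3 above STAT4 in 4 of 6. STAT4 was above STAT6 in 5 of the 5 libraries with both, and STAT6 above JAK3 in 2 of 3. The order of JAK2 and STAT2 was thus not the same from library to library. The order of STAT2 and STAT3, and that of STAT3 and STAT4, was reversed in 1 library each. STAT3 and STAT4 were equal in 1 library, as were STAT6 and JAK3. JAK1, at 44 to 80 reads, did not overlap with STAT4, at 17 to 32 reads. The median place of the 5 promoters called in all 6 libraries was 9.61% from the top of the list, beside 21.8% for all promoter regions called in all 6 libraries. JAK1 stood at 3.0%, STAT2 at 5.48%, JAK2 at 9.61%, STAT3 at 18.9% and STAT4 at 41.0%.

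**Figure D2:**
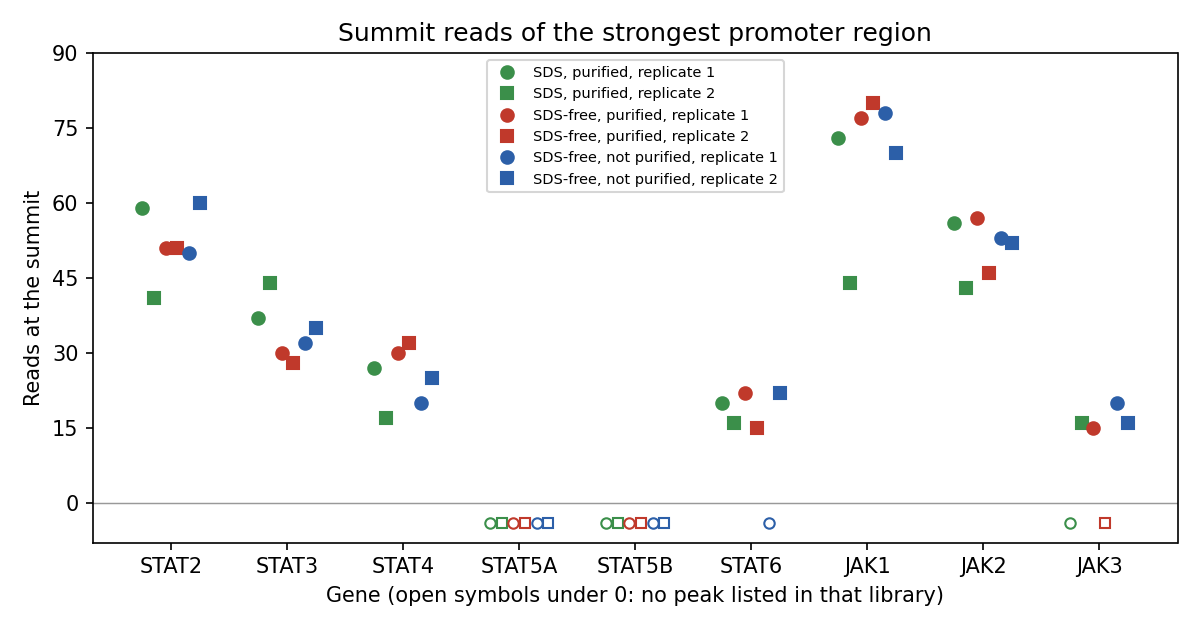
Reads at the summit (vertical axis) of the strongest promoter region of each gene in each library, coloured by protocol, with circles for replicate 1 and squares for replicate 2. Open symbols under 0 mark libraries with no peak: all 6 for STAT5A and STAT5B, 1 for STAT6 and 2 for JAK3.

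The remaining promoter regions were weak. STAT4 had a second one 541 bp into the gene, at chr2:192014985-192015184, with 14 reads in Pi-ATAC replicate 1 only. STAT6 had 3 more, at chr12:57505563-57505808 with 18 reads in SDS-free purified replicate 2, at chr12:57506027-57506349 with 15 reads in SDS-free purified replicate 1 and 22 in Pi-ATAC replicate 2, and at chr12:57521928-57522283 with 19 reads in Pi-ATAC replicate 1. The last of these lies at −16.9 kb from the canonical STAT6 start and also at a start of LRP1, an endocytic receptor, so it cannot be assigned to either gene. JAK1 had 2 more near its far alternative start, at −101.5 and −101.9 kb from the canonical one, at chr1:65533619-65533818 with 16 reads in Pi-ATAC replicate 2 and at chr1:65533979-65534178 with 12 reads in SDS-free purified replicate 1.

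STAT5A and STAT5B, the factors of interleukin-2, prolactin and growth hormone signals, had the fewest peaks of the 9 genes. No peak was listed in the 44.4 kb window of STAT5A in any library, which was so for the windows of 21.0% of all protein-coding genes. The 109.5 kb window of STAT5B held 1 region, at chr17:40346357-40346572, with 13 reads in Pi-ATAC replicate 2 only, and this lies at a start of the neighbouring gene GHDC. From this region to the STAT3 promoter, 193.7 kb held no peak in any of the 6 lists, and the canonical starts of 2 coding genes, STAT5A and STAT5B, lay in it. On the far side the nearest region called in all 6 libraries was chr17:40306850-40307368, with a median of 17.5 summit reads. Of all 56423 gaps between neighbouring merged regions, whose median was 22.9 kb, 4.5% were at least as long. Gaps of that length held the canonical start of 12.5% of all protein-coding genes, that is 2472 genes. The nearest region to the STAT5A start was 93.9 kb away and the nearest to the STAT5B start was 81.8 kb away. Only 5.70% and 6.78% of protein-coding genes had their nearest region farther off. Peaks were numbered in order without a missing number in all 6 lists. The lists hold no read coverage outside peaks, so the lack of a listed peak does not show that the chromatin there was closed.

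**Figure D3:**
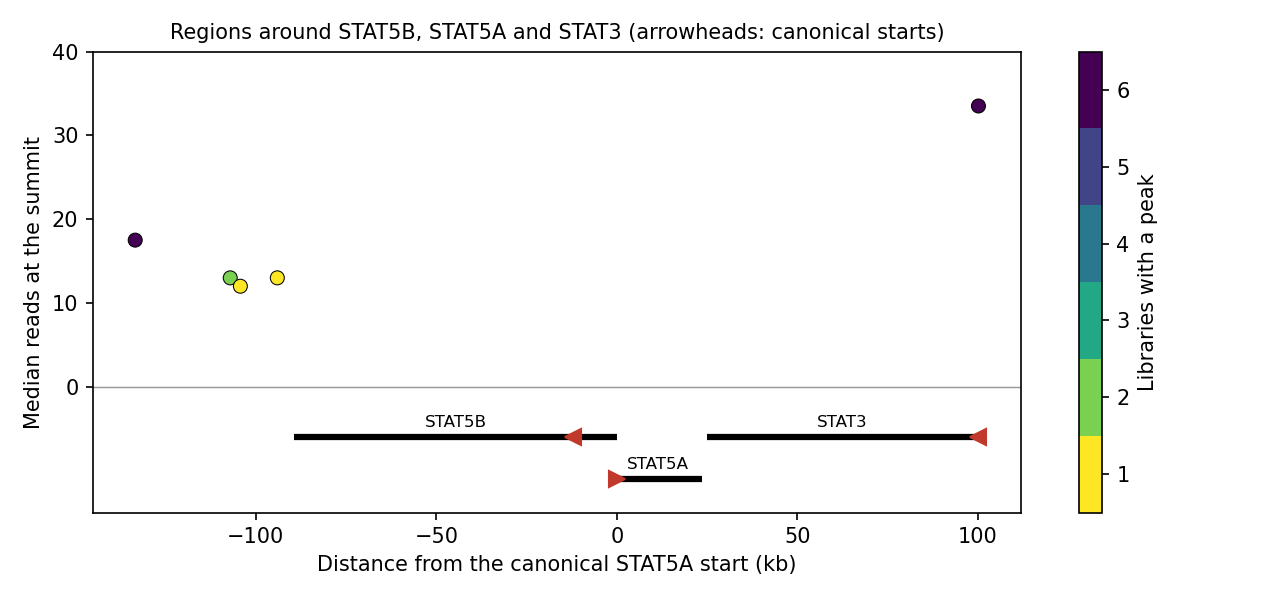
Median reads at the summit (vertical axis) of every merged region around STAT5B, STAT5A and STAT3, by distance from the canonical STAT5A start in kb, coloured by the number of libraries with a peak. Black bars are the gene bodies and red arrowheads the canonical starts, pointing in the direction of transcription. Between the weak region at the start of GHDC, 93.9 kb to the left, and the STAT3 promoter, 99.7 kb to the right, no region was called.

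The sequence at the STAT5A and STAT5B starts was of the CpG-rich kind, as at JAK1 and JAK2, whose promoters were called in all 6 libraries. The 4 starts are shown to let these be compared base by base. Each runs 5′ to 3′ on the strand of its gene from 200 bases before the canonical start to 30 bases from the start on, as GRCh37 has it, with every CpG dinucleotide in capitals. The coordinates are chr1:65432203-65432432 (minus strand) for JAK1, chr9:4985072-4985301 (plus strand) for JAK2, chr17:40440316-40440545 (plus strand) for STAT5A and chr17:40428380-40428609 (minus strand) for STAT5B.
JAK1 start: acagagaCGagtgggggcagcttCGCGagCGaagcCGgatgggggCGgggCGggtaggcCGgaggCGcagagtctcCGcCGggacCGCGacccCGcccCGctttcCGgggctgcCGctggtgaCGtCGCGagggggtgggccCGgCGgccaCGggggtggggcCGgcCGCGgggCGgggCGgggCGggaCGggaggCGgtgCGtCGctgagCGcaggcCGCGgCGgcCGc
JAK2 start: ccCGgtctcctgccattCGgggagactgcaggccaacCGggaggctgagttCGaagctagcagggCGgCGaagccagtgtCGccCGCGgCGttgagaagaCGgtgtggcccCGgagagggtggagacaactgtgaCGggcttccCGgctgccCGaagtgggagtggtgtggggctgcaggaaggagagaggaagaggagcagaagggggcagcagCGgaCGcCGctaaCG
STAT5A start: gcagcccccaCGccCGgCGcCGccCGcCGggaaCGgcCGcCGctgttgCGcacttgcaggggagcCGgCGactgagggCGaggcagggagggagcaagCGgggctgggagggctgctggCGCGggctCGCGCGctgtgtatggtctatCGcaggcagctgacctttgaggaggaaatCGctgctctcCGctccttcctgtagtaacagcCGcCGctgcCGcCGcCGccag
STAT5B start: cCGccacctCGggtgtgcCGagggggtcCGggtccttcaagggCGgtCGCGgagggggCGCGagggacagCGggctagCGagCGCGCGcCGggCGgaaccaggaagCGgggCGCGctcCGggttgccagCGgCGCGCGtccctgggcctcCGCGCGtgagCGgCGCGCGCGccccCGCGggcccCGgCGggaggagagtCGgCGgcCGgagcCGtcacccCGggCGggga
These 230 bases hold 38 CpGs at JAK1, 19 at JAK2, 27 at STAT5A and 42 at STAT5B, beside 5 at STAT6. In the 300 bases from 250 before to 50 after the start, GC content was 75.0% at STAT5A and 82.0% at STAT5B, and the observed CpGs were 0.88 and 1.10 times the number expected from the base composition. Of the 1492 protein-coding starts within 5 percentage points of GC and 0.05 of the CpG ratio of STAT5A, 58.3% had a promoter called in all 6 libraries and 23.2% had none. Of the 254 starts like that of STAT5B, 58.3% were called in all 6 libraries and 22.4% in none. For STAT6, whose start is poor in CpG with a ratio of 0.22, 6.18% of 469 like starts were called in all 6 libraries and 81.4% in none. The STAT6 region called in 5 libraries did not cover this start, and the nearest region lay 418 bp from it. That region called in 5 had its summit 790 bp into the gene, with a CpG ratio of 0.63 in the 300 bp around it. The start of JAK3 had a ratio of 0.47, and 19.2% of 292 like starts were called in all 6 libraries. A search of the 2 kb around the STAT5A and STAT5B starts found no copy elsewhere in GRCh37 of at least 50 bp at 95% identity, and mappability was not measured otherwise.

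JAK1 held the most regions, 19 in a window of 254.5 kb, and 6 of its regions reached all 6 libraries. A window of 200 to 300 kb around a protein-coding gene held a median of 5 regions, and 98.2% of the 788 such windows held fewer regions than that of JAK1. Apart from the promoter, 5 regions of JAK1 were called in all 6 libraries, against a median of 1 distal region in windows of this size. All 5 lay in introns. The one with the highest mean −log10 q, at chr1:65329640-65330286, lay 102.2 kb into the gene. It held 46 and 34 reads in the SDS libraries, 45 and 30 in the SDS-free purified libraries, and 54 and 35 in the Pi-ATAC libraries, and stood 5.00% to 16.9% from the top of the lists. In every protocol replicate 1 was the higher one. Scaled to the library medians, log2 reads were 5.44 and 5.20, 5.41 and 5.08, and 5.67 and 5.09 in the same order. The second, at chr1:65426122-65426849 and 5.65 kb into the gene, varied least of the 5 in proportion to its mean, with 56 and 50, 56 and 55, and 58 and 53 reads in the same order. The ranges of the 3 protocols overlapped at this site. The other 3, at 70.9 and 83.5 kb into the gene and at −21.1 kb, within the longest isoform, had medians of 36.5, 36.5 and 22 reads.

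The central 200 bases of the 2 strongest intronic JAK1 sites are shown to contrast them with the starts above. They are on the plus strand of GRCh37 around the highest summit, at chr1:65329927-65330126 and chr1:65426482-65426681, with CpG dinucleotides in capitals.
JAK1 intron, 102.2 kb: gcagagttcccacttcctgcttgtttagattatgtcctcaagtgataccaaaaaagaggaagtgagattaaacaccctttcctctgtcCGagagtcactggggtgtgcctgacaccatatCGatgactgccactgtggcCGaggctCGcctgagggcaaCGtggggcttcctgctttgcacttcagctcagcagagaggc
JAK1 intron, 5.65 kb: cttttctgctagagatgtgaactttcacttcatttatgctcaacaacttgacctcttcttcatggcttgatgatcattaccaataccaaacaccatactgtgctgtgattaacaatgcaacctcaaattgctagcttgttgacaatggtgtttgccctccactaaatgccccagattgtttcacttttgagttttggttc
The former holds 5 CpGs in 53.0% GC and the latter none in 39.5% GC. The site 5.65 kb into the gene thus held no CpG in its central 200 bases, and neither did the JAK1 site at −21.1 kb. Few CpGs are common at distal regions. Those in gene windows called in all 6 libraries had a median CpG ratio of 0.21 and 45% GC in the central 200 bases. The site at 5.65 kb had a median of 55.5 summit reads, beside medians of 52.5 and 51 at the CpG-rich promoters of JAK2 and STAT2. The ranges of the 3 sites overlapped.

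**Figure D4:**
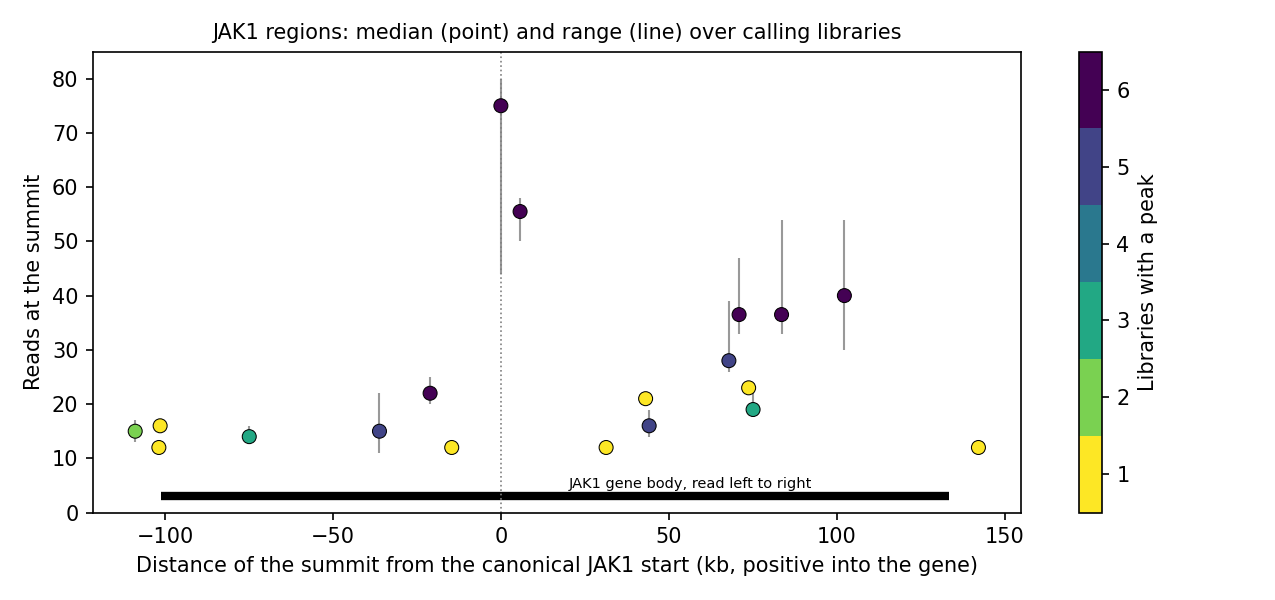
Summit reads (vertical axis; point, median; line, lowest to highest over the calling libraries) of the 19 JAK1 regions by distance from the canonical start in kb, positive into the gene, coloured by the number of libraries with a peak. The promoter at 0 kb, the intronic site at 5.65 kb and the sites at 67.8, 70.9, 83.5 and 102.2 kb lie above the weak regions, 7 of which were called in 1 library.

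The remaining 11 distal regions of JAK1 were called in 1 to 5 libraries. Of the regions called once, 5 were listed in SDS replicate 1 only, with 12 to 23 reads, so that without this library the windows of the 9 genes held 35 regions in place of 40. The strongest of the 11 lay 67.8 kb into the gene and was listed in 5 libraries, with 26 to 39 reads.

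STAT4 had 6 distal regions. The strongest lay at the start of a neighbouring coding gene at the far end of the window, with 61 and 49 reads in the SDS libraries, 70 and 56 in the SDS-free purified libraries, and 79 and 68 in the Pi-ATAC libraries. In every protocol replicate 1 was the higher one. Scaled to the library medians, log2 reads were 5.85 and 5.73, 6.05 and 5.98, and 6.22 and 6.05 in the same order. Of the distal regions within STAT4, only the intronic one at chr2:191914553-191914969, 100.9 kb into the gene, was called in all 6 libraries. It held 20 and 20 reads in the SDS libraries, 15 and 14 in the SDS-free purified libraries, and 15 and 13 in the Pi-ATAC libraries. The SDS libraries were the highest and did not overlap with the other 4. The distal regions of STAT2 and STAT6 that were called in all 6 libraries also lay at starts of other genes. For STAT2 this was a region at the start of PAN2, a deadenylase subunit, at chr12:56727302-56728158, with 35 and 19, 47 and 31, and 37 and 33 reads in the 3 protocols in the same order. For STAT6 these were 2 regions at starts of NAB2, a corepressor of EGR factors, the stronger at chr12:57482206-57483106 with 57 and 43, 60 and 57, and 48 and 50 reads. Of the 6 regions away from any coding start that were called in all 6 libraries, 5 were in JAK1 and 1 in STAT4. STAT3, JAK2 and JAK3 had no distal region. Of protein-coding gene windows of 80 to 180 kb, the size of those of STAT3 and JAK2, 25.1% had no region away from the promoter of the gene.

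The protocols were then compared. The windows of the 9 genes held 28 and 25 peaks in the SDS libraries, 25 and 24 in the SDS-free purified libraries, and 23 and 26 in the Pi-ATAC libraries. Peaks covered 12.9 and 11.4 kb, 13.7 and 11.9 kb, and 12.7 and 13.2 kb in the same order. The share of these peaks at promoters was 21.4% and 32.0%, 36% and 29.2%, and 34.8% and 34.6%. The promoter shares of the Pi-ATAC libraries lay above those of the SDS libraries, and in all other pairs of protocols the values overlapped. The exact two-sided permutation test of 2 libraries against 2 cannot give a p below 0.333. This exact test gave p = 0.333 for the promoter share of 34.7% ± 0.118 (SD, n = 2) in the Pi-ATAC libraries against 26.7% ± 7.48 (SD, n = 2) in the SDS libraries, and 0.667 to 1.00 elsewhere. After Benjamini-Hochberg adjustment all 9 of these exact tests gave p = 1.00. Without SDS replicate 1, the library with 5 JAK1 regions of its own, the difference was 2.70 in place of 7.98 percentage points, and without SDS replicate 2 it was 13.3.

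Summit reads were compared between protocols with limma over the 20064 regions called in all 6 libraries, 15 of which belong to the 9 genes. At an adjusted p below 0.05, 0 of the 15 were called between the SDS-free and SDS buffers, both purified, beside 0.0449% of all regions. Between the Pi-ATAC workflow and the SDS buffer 0 of the 15 were called, beside 0.0199% of all regions, and between the Pi-ATAC workflow and the purified SDS-free protocol 0 of the 15, beside 0% of all regions. At an unadjusted limma p below 0.05 these numbers were 4, 3 and 2 of the 15, and 1722, 1693 and 865 of the 20064. The median log2 difference of the 15 was 0.10, 0.06 and −0.06 in the 3 contrasts, beside 0.03, 0.04 and 0.01 over all regions. The median standard error of 0.24 sets what could be seen with 2 libraries per protocol.

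The JAK1 promoter had the lowest adjusted limma p of the 15. Its log2 difference was 0.50 (SE 0.15, adjusted p = 0.252, n = 2 per protocol) for the SDS-free against the SDS buffer. Without SDS replicate 2, which had 44 reads beside 73 in replicate 1, the log2 difference was 0.23 with an adjusted limma p of 0.766. Without SDS replicate 1 it was 0.76 with an adjusted limma p of 0.122, and without SDS-free purified replicates 1 and 2 in turn it was 0.65 and 0.34 with adjusted limma p of 0.133 and 0.709. In each of these fits the protocol left with 1 library is assumed to vary like the others. The region at the start of PAN2 in the STAT2 window had the highest log2 difference in this contrast, 0.59 (SE 0.23), with an adjusted limma p of 0.425. The STAT3 promoter differed by −0.45 (SE 0.22) and the STAT4 promoter by 0.56 (SE 0.27) in this contrast, with adjusted limma p of 0.569 and 0.559. Between the Pi-ATAC workflow and the SDS buffer the lowest adjusted limma p was 0.495, for the region at the start of the gene next to STAT4, with a log2 difference of 0.35 (SE 0.15). The intronic STAT4 region differed by −0.59 (SE 0.28) in this contrast, with an adjusted limma p of 0.565. For the JAK2 promoter the 3 log2 differences were 0.09, 0.02 and −0.07 (SE 0.17), and for the STAT2 promoter 0.08, 0.08 and −0.00028 (SE 0.17). None of these passed the test, which does not show that the protocols are alike at these sites.

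**Figure D5:**
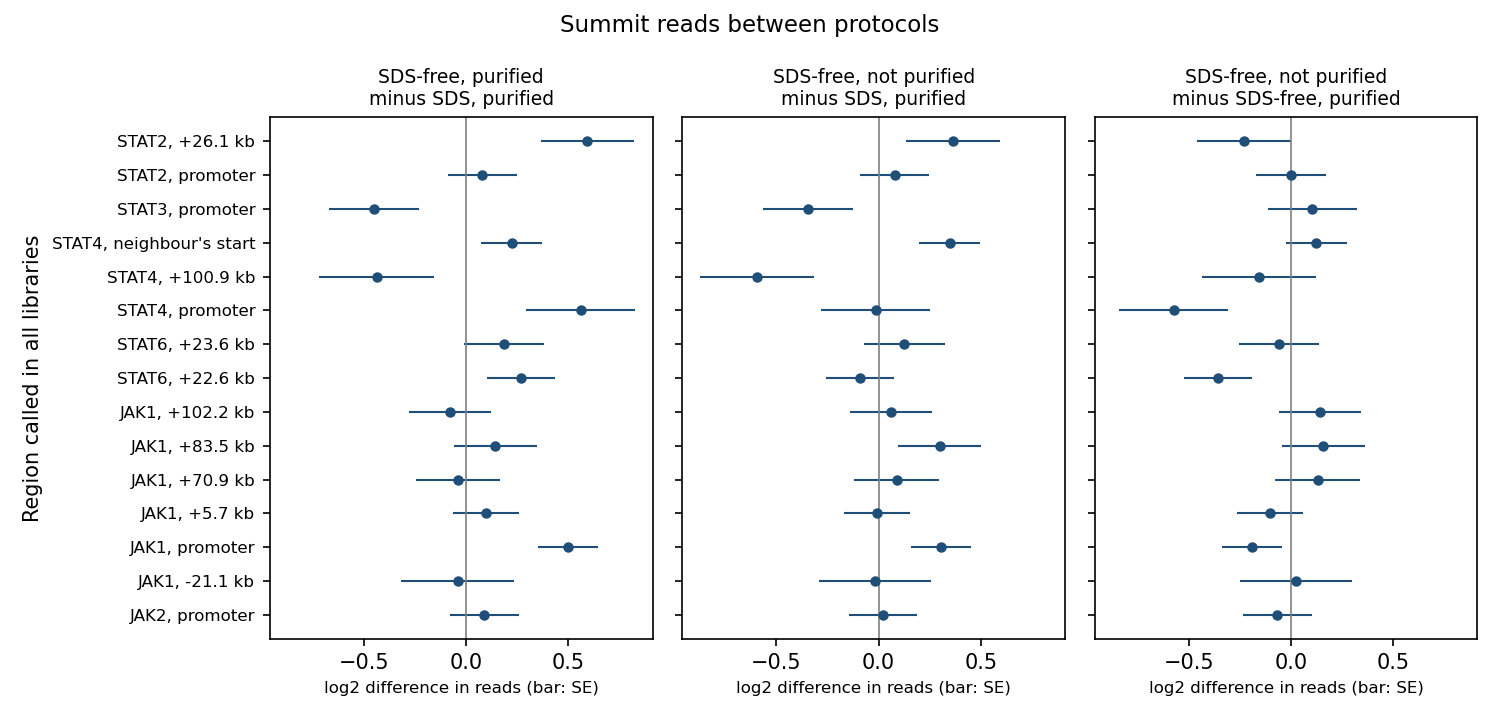
log2 difference in scaled summit reads (horizontal axis; bars, standard error from limma) of the 15 regions called in all 6 libraries, for the 3 pairs of protocols. Distal regions are named by the distance of the summit from the canonical start, except the strongest one of STAT4, named as the neighbour's start. Points lie on both sides of 0, from −0.59 to 0.59, and none passed an adjusted p of 0.05.

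Calls that were present in both libraries of 1 protocol and absent from both of another were few. Of the 35 regions with a peak in either purified protocol, 0 were called in both SDS-free and neither SDS library and 0 in both SDS and neither SDS-free library, beside 1.83% and 3.2% of all regions. Of the 37 regions with a peak in the SDS or Pi-ATAC libraries, 0 were called in both Pi-ATAC and neither SDS library, beside 2.4%, and 1 in both SDS and neither Pi-ATAC library, beside 2.82%. Of the 35 regions with a peak in an SDS-free protocol, 0 were called in both Pi-ATAC and neither purified library, beside 2.7%, and 1 in both purified and neither Pi-ATAC library, beside 1.76%. Both lay in introns of STAT4. The one at chr2:191987679-191988018 held 18 and 14 reads in the SDS libraries and 13 in SDS-free purified replicate 2. The one at chr2:191979205-191979694 held 26 and 17 reads in the SDS-free purified libraries and 19 in SDS replicate 1. The 6 summits held 13 to 26 reads, beside library medians of 20 to 22, and the counts of 1 are near the background.

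The other genes of the pathway were read by their promoters. Of 24 cytokine receptor genes, 9 promoters were called in all 6 libraries, 7 in 1 to 5 libraries and 8 in none. The highest was LEPR, the leptin receptor, which shares its promoter with LEPROT, with 118 to 140 reads. The promoter of IL7R, the interleukin-7 receptor, was called in 1 library with 22 reads, and those of IL2RA and EPOR, the receptors of interleukin-2 and erythropoietin, in none. Of 18 inhibitors, 17 promoters were called in all 6 libraries. The highest by mean −log10 q was SOCS5, a suppressor of cytokine signalling, with 44 to 68 reads. The exception was PTPN6, the phosphatase SHP-1, called in 3 libraries with 22 to 24 reads. Of 10 genes known as STAT targets, 8 promoters were called in all 6 libraries. Among these BCL2L1, a survival gene, held 44 to 64 reads, whereas BATF, an AP-1 family factor, was called in 4 libraries with 14 to 16 reads and FCER2, the low-affinity IgE receptor CD23, in 1 library with 15 reads. These counts stand beside 45.5% of all protein-coding genes. Among the 34 promoters of these lists called in all 6 libraries, the one most like STAT2 and JAK2 in log2 scaled reads over the 6 libraries was IRF1, a transcription factor of the interferon response, at Euclidean distances of 0.39 and 0.18. For STAT3 it was PIM1, a serine/threonine kinase (0.44), for JAK1 IL6ST, the signalling chain gp130 (0.51), and for STAT4 SOCS7 (0.68). The median distances to the 34 were 2.06 for STAT2, 1.96 for JAK2, 1.38 for STAT3, 3.04 for JAK1 and 1.29 for STAT4. Only these 34 were compared, so the nearest had to be a gene of the lists. The distance includes the height of the peak, so it does not show a link within the pathway.

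Promoters of marker genes were compared with the labelled cell type. Of 8 B cell markers 3 were called in all 6 libraries, namely MS4A1, the antigen CD20, with 39 to 52 reads, EBF1 with 40 to 47 and CR2 with 13 to 17, and the other 5 in 1 to 4 libraries. Of 5 T cell markers only CD8A was called, in all 6 libraries with 15 to 23 reads, and the promoters of CD3D, CD3E and CD3G were called in none. The 4 erythroid and the 4 epithelial markers were called in none, and of the 4 myeloid markers CD14 was called in 4 libraries with 11 to 17 reads.

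The sequence that STAT dimers are known to bind, TTCNNNGAA, which is its own reverse complement, was searched in the 300 bp around the summit of each region. It was found in 3 of the 40 regions (7.50%, exact 95% interval 1.57% to 20.4%), beside 8.97% of all merged regions. Of the 13 promoter regions 2 held it (15.4%), beside 5.24% of all promoter regions. In the central 200 bp, where the match at the far JAK1 start is lost, it was 1 of 13 (7.69%) beside 3.51%, and 2 of the 40 regions (5%) beside 5.98%. None of the 5 promoters called in all 6 libraries held it, beside 5.02% of all such promoter regions, and none of the 22 distal regions away from coding starts, beside 9.91% of regions in gene windows that were likewise away from coding starts. The 3 matches were at the neighbouring start downstream of STAT4, at the weak STAT4 promoter region and at the far JAK1 start. With a spacer of 4 bases, TTCNNNNGAA, chosen after seeing the data, 6 regions (15%) matched, beside 7.79% of all regions. Of these, 4 were in JAK1 and 2 in STAT4. A match is a description of letters, and binding was not measured.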

How the data were processed

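The authors mapped reads to hg19 with Bowtie2 2.1.0, removed low-quality and duplicate reads (Picard 1.79) and called peaks with MACS2 (version not given in the sources used here) at a q-value of 0.01. Merging per condition and filtering are described, but there is 1 list per library. Each deposited list gives a score per peak, the fold enrichment of the summit (a ratio), −log10 p and −log10 q, and the summit offset in bases.

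From these, peaks were merged over the 6 lists, and a library called a region where a peak of it overlapped. Summit reads were solved from the deposited fold enrichment and −log10 p. Gene models were GENCODE 44 on GRCh37. Log2 summit reads, scaled to the median, were tested with limma 3.58.1 (trend, Benjamini-Hochberg), and values per library with exact permutation tests. Named regions were every promoter region and the strongest distal region of each gene, and regions particular to a protocol. Also named were the second strongest distal region of JAK1 and the distal region within STAT4 called in all 6 libraries. Pathway genes named were the promoter highest by mean −log10 q and up to 3 not called throughout. Members, lists and markers were chosen with earlier results of these data known. Steps were tested on simulated data and checked against bedtools 2.31.1, and copies were searched with blastn 2.17.0. Python 3.11.15 and R 4.3.3 were used.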

Additional observations from a re-analysis of the deposited data

How the results depend on the processing

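With 2 libraries per protocol, depth known only from the peaks, and no value where no peak was listed, small differences between protocols could not be seen. Of the 15 regions of the 9 genes called in all 6 libraries, limma called 0 in every contrast under all alternatives run. The regions called in all libraries numbered 11 to 16, and the promoter ones 5 or 6, under all alternatives run. The exact tests over libraries gave p of at least 0.333 throughout.

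Over all regions, limma called 9 and 4 regions for the SDS-free and the Pi-ATAC protocol against the SDS buffer. With the libraries of the same number as a replicate block these were 10 and 6, and without purification against with it 0. The numbers do not pair the libraries by the labels, and the correlations of same-numbered deviations were −0.00, −0.00 and 0.01. With that block the exact paired test over 2 pairs cannot go below p = 0.5, so it could make no call. Quantile normalization gave 5 and 4 regions, no scaling 0 and 0, and fold enrichment 1 and 1. Without scaling the median log2 difference over all regions was 0.12 for the Pi-ATAC workflow against either other protocol. Leaving out 1 library gave 1 to 15 regions for SDS-free against SDS, 0 to 10 for Pi-ATAC against SDS, and 0 to 1 for Pi-ATAC against purified SDS-free.

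The median place of the 15 regions, 15.6% from the top by −log10 q, was 20.4% by fold enrichment and 20.7% by peak width. Among values that turned their sign, the difference in covered length between SDS-free and SDS was 0.625 kb, −0.167 kb without the 10 kb flanks, and −0.25 to 1.5 kb with 1 library left out. Between Pi-ATAC and purified SDS-free it was 0.198 kb, and −0.678 to 1.07 kb with 1 library left out. The difference in promoter share between these was 2.12 percentage points, −0.155 with a promoter window of 500 bp, and −1.30 to 5.53 with 1 library left out. The cause of these changes was not tested.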
